A study of Mus musculus with 20 samples.

Results

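The genes described here are 37 members of the transforming growth factor beta (TGF-beta) and bone morphogenetic protein (BMP) pathways, out of 43472 genes in the count table. They were chosen by name, as a list of ligands, receptors, antagonists and target genes whose symbols occur in that table. They were measured by bulk RNA sequencing of mouse ventral prostate, an androgen-dependent lobe of the gland, in 4 groups of 5 libraries. The groups were ARNoC/Y males given testosterone, ARNoC/Y males given vehicle, wild type (WT) C57BL/6J males given testosterone and WT males given vehicle. All of these males, the vehicle groups included, had been orchidectomised, and treatment lasted 4 days, so no group represents the intact gland. ARNoC denotes an androgen receptor in which the contact between the amino-terminal and carboxyl-terminal domains has been lost. The labels used here give no age, testosterone dose or interval between surgery and treatment.

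Ligands of the TGF-beta family bind pairs of type I and type II serine/threonine kinase receptors, which phosphorylate Smad proteins that enter the nucleus with Smad4 and act on target genes. TGF-betas and activins signal mainly through one branch of Smads, BMPs mainly through another, and secreted binding proteins such as follistatin and noggin, the decoy receptor Bambi and the inhibitory Smads hold the signal back. In the prostate, TGF-beta is known as a growth inhibitor of the epithelium whose activity increases when androgen is withdrawn, and BMPs restrain branching of the developing gland.

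Of the 37 members, 33 had at least 10 normalized counts (raw counts over a library size factor) in at least 5 of the 20 libraries and were tested among 15261 genes. Bmp5, Gdf15, Nog and Grem1 did not pass that filter. A member is said to have risen or fallen where edgeR's quasi-likelihood test gave an adjusted p, by the Benjamini-Hochberg method over all 15261 genes, under 0.05. Libraries held 8861646 to 21600352 counts. Whether each library is its own animal is not stated in the labels, and the spread behind the p-values may be technical. Gene counts do not show the receptor allele, so the genotype labels were not checked. The treatment label could be read in the marker genes: all 5 ventral prostate secretory markers rose with testosterone in both genotypes. Of 6 seminal vesicle markers, 0 had enough counts to be tested, and the lobe itself was not checked.

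The promoters of 3 members that changed in both genotypes are shown here. Bmpr1b and Inhbb showed the largest increase and the largest decrease of the members that passed the test in both genotypes. Id2 is a known target of BMP signalling. Each window runs from 250 bases before to 50 bases after an annotated start in RefSeq (build GRCm38.p6), 5′ to 3′ on the minus strand of the chromosome. Capitals mark matches, on either strand, to AGAACA, a half-site of the androgen response element, and to GGCGCC or GGAGCC, GC-rich motifs bound by BMP Smads.
Bmpr1b, chr3:141931539-141931838: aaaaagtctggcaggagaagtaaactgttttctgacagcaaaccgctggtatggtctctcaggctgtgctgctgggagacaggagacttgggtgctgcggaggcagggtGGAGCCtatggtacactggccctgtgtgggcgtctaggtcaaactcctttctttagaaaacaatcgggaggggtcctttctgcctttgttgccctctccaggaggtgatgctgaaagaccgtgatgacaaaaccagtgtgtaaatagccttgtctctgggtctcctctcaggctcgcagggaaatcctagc
Inhbb, chr1:119422199-119422498: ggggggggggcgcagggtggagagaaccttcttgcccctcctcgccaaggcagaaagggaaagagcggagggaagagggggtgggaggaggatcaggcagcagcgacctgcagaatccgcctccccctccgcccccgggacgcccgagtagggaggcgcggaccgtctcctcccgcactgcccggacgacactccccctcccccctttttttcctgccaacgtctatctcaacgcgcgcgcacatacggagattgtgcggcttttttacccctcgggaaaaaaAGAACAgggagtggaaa
Id2, chr12:25096043-25096342: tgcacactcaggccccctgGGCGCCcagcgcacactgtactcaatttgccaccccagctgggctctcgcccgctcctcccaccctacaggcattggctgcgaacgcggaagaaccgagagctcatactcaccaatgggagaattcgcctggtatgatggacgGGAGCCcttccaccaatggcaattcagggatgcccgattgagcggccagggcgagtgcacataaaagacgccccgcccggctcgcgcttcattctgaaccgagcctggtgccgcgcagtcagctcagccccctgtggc
The Bmpr1b window holds GGAGCC 141 bases before the start, that of Inhbb holds AGAACA 33 bases past it, and that of Id2 holds GGCGCC 231 and GGAGCC 88 bases before it. RefSeq lists 3 windows for Bmpr1b, one of which holds none of these motifs. Windows were found for 27 of the 37 members, 34 in all. AGAACA stood in windows of 4 members (Bmpr2, Fstl3, Inhbb and Smad6), which were 11.8% of the 34 windows, and in 19% of all 32851 windows. GGCGCC stood in those of 7 members and in 11.9% of all windows, GGAGCC in those of 15 members and in 30.8% of all, and the palindrome GTCTAGAC, bound by Smads of the TGF-beta branch, in that of Smad6 and in 0.213% of all. The members' windows had a median GC content of 63.3%, against 52.7% in all windows, and a match is only a description of the sequence.

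With testosterone, 7 members rose and 7 fell in ARNoC prostates, and 4 rose and 8 fell in WT prostates, or 4 and 13 in ARNoC and 2 and 20 in WT when counts were scaled to library totals. Among all genes tested, 19.4% rose and 16.8% fell in ARNoC, and 20.4% rose and 18.8% fell in WT, so the number of members that passed the test was near the background in each. The median log2 change of the tested members was -0.17 in ARNoC and -0.21 in WT, against -0.01 and -0.02 over all genes. Scaling to totals moved the median of all genes to -0.36 in ARNoC and -0.44 in WT, and the share of calls that were increases to 13.5% in ARNoC, against 53.6% with the main scaling, and to 10.8% in WT, against 52.0%. The 5 testosterone and 5 vehicle libraries did not overlap for 10 members in ARNoC and 7 in WT, where 23.1% and 27% of all genes showed no overlap. In both genotypes 4 members rose (Bmpr1b, Bmp7, Acvr1 and Bambi) and 5 fell (Inhbb, Tgfb2, Acvr2a, Tgfbr3 and Id2). Among all genes, 4100 (26.9%) changed the same way in both genotypes. In bulk tissue such a decrease can mean fewer cells of a type or less RNA per cell, which cannot be told apart here.

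**Figure D1:**
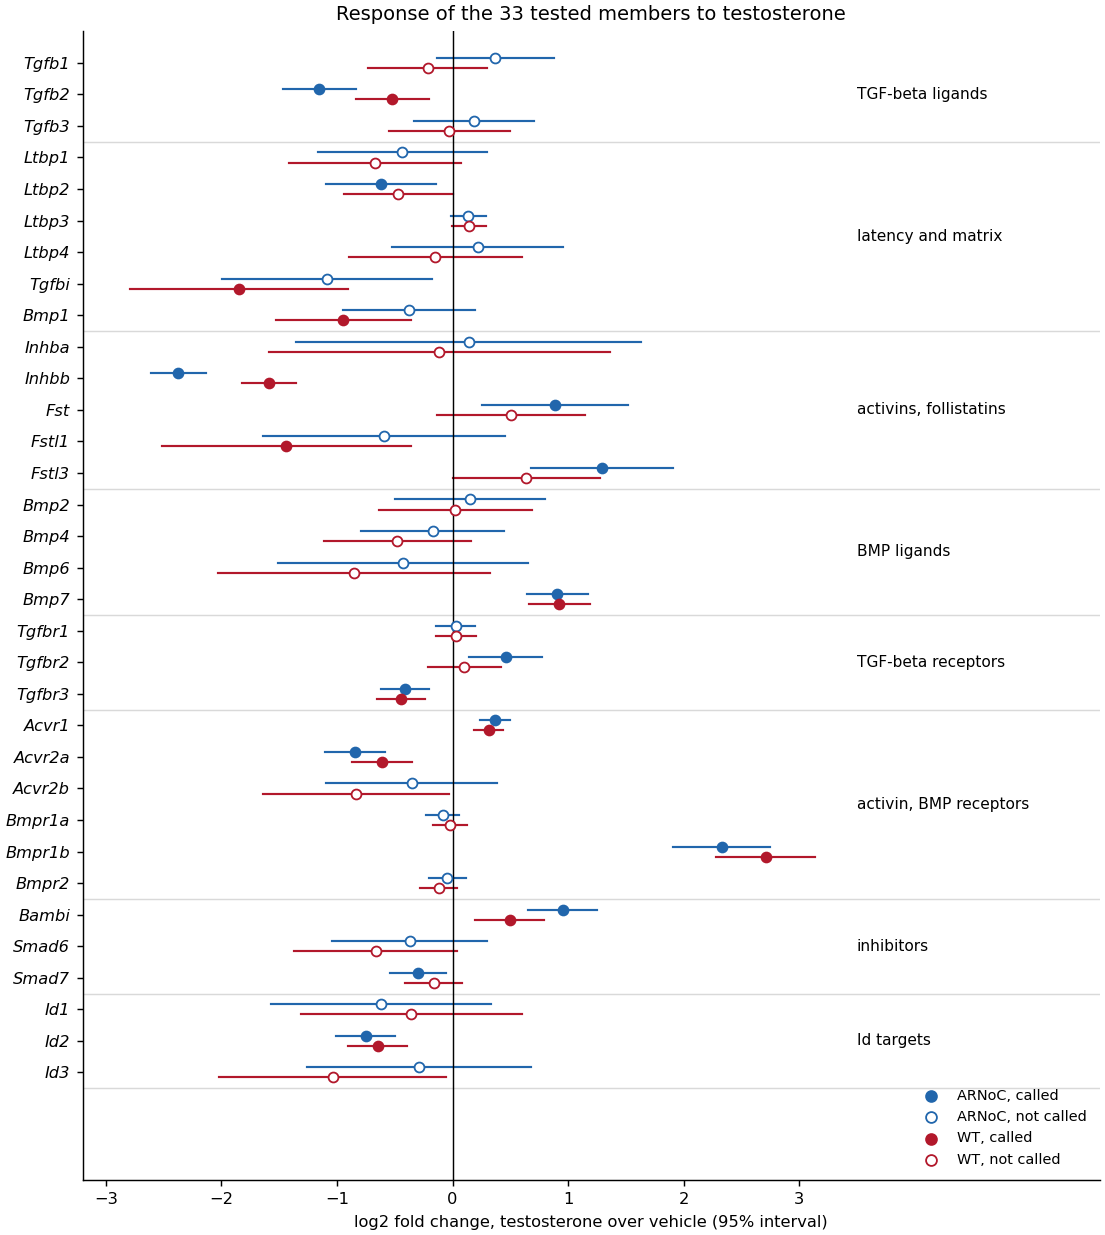
Log2 fold change, testosterone over vehicle, with its 95% interval for the 33 tested members by role, in ARNoC (blue, above) and WT (red, below); filled points had an adjusted p under 0.05 (called) and open points did not. Bmpr1b (2.33 in ARNoC, 2.71 in WT) and Inhbb (-2.37 and -1.59) lie farthest from 0 on either side among members called in both genotypes.

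Among the TGF-beta ligands, Tgfb2 fell with testosterone in both genotypes, while Tgfb1 and Tgfb3 did not pass the test. Tgfb2 ranged from 309 to 553 normalized counts in ARNoC testosterone libraries, with a median of 516, against 916 to 1241 in ARNoC vehicle libraries, with a median of 991. In WT it ranged from 578 to 796 with testosterone, against 701 to 1203 with vehicle. The groups were apart in ARNoC and overlapped in WT, where vehicle library 2 was the lowest of its group. The log2 change was -1.15 ± 0.15 (SE) in ARNoC (2.22-fold lower, adjusted p = 5.81e-06, edgeR) and -0.52 ± 0.15 in WT (1.43-fold lower, adjusted p = 0.00938). Tgfb1, the best known isoform, averaged 140 ± 58.5 normalized counts in ARNoC testosterone libraries and 109 ± 22.7 in ARNoC vehicle libraries (SD, n = 5 each). In WT it averaged 99.3 ± 26.3 with testosterone and 116 ± 23.0 with vehicle, and its log2 intervals, -0.14 to 0.88 in ARNoC and -0.73 to 0.30 in WT, both include 0. Tgfb3 had intervals of -0.34 to 0.71 in ARNoC and -0.55 to 0.50 in WT. Tgfb1 passed the test as a decrease in WT with scaling to totals (adjusted p = 0.0373, edgeR). With a myeloid marker score as a covariate, Tgfb1 and Tgfb3 passed it as increases in ARNoC (adjusted p = 0.0259 and 0.0477, edgeR).

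Levels of different genes were compared per kb of exon, by the merged length of all annotated exons of a gene. That length can exceed that of the transcripts present, so such comparisons are approximate. Per kb, Tgfb2 had the highest mean of the 3 ligand transcripts in every group but its share was lower with testosterone. It made up 30.1% to 52.0% of their summed level in ARNoC testosterone libraries, against 55.4% to 79.9% in ARNoC vehicle libraries. In WT it made up 50.6% to 64.0% with testosterone, against 64.2% to 70.2% with vehicle. The summed level of the 3 had a median of 177 normalized counts per kb in ARNoC testosterone libraries, 257 in ARNoC vehicle libraries, 191 in WT testosterone libraries and 266 in WT vehicle libraries. The ratio of Tgfb2 to Tgfb3 per kb had a median of 1.24 with testosterone and 3.07 with vehicle in ARNoC, and 2.05 with testosterone and 2.60 with vehicle in WT.

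The latent TGF-beta binding proteins, most of which tether latent TGF-beta to the matrix, held 1 member that passed the test. Ltbp2, the member of that family that does not bind latent TGF-beta, averaged 228 ± 38.4 normalized counts in ARNoC testosterone libraries and 353 ± 149 in ARNoC vehicle libraries (SD, n = 5 each). It fell in ARNoC (log2 -0.62 ± 0.23, adjusted p = 0.0388, edgeR) and had a log2 change of -0.47 ± 0.23 in WT (adjusted p = 0.109). That call was lost without vehicle library 1 or 4 or testosterone library 2, 3 or 4 of ARNoC (adjusted p 0.0607 to 0.177). Without ARNoC vehicle library 4 the log2 change was -0.35 in ARNoC, and the WT change passed the test (-0.47, adjusted p = 0.0446). The ARNoC call was also lost with limma-trend (adjusted p = 0.0515) and with a fibroblast or myeloid marker score as a covariate (adjusted p = 0.0637 and 0.233), and the WT change passed with scaling to totals (-0.89, adjusted p = 0.00336). Ltbp3 averaged 1551 ± 170 with testosterone and 1418 ± 117 with vehicle in ARNoC, and 1584 ± 50.4 with testosterone and 1443 ± 117 with vehicle in WT. Its log2 intervals were -0.01 to 0.29 in both genotypes, and it turned to -0.22 in ARNoC and -0.28 in WT with scaling to totals. Ltbp1 and Ltbp4 did not pass the test in either genotype, with intervals of -1.16 to 0.30 and -0.52 to 0.96 in ARNoC and of -1.42 to 0.07 and -0.90 to 0.60 in WT.

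Tgfbi, a matrix protein induced by TGF-beta, fell in WT and did not pass the test in ARNoC. Its libraries had 124, 103, 248, 148 and 184 normalized counts in ARNoC with testosterone, against 498, 355, 280, 491 and 98.2 with vehicle. In WT they had 67.8, 55.4, 90.0, 99.8 and 227 with testosterone, against 490, 169, 313, 270 and 760 with vehicle. In each genotype 1 library crossed over to the other group: ARNoC vehicle library 5 was the lowest of all 10 ARNoC libraries, and WT testosterone library 5 lay above WT vehicle library 2. On the log2 scale the change was -1.08 ± 0.44 in ARNoC (adjusted p = 0.0583, edgeR) and -1.85 ± 0.45 in WT (3.59-fold lower, adjusted p = 0.00288). Without ARNoC vehicle library 5 the ARNoC change was -1.32 (adjusted p = 0.0145), and it also did so without ARNoC testosterone library 3 or without library 2 or 5 of either WT group (adjusted p 0.0339 to 0.0483). The difference between the genotypes did not pass the test of interaction, the log2 response in ARNoC less that in WT (0.76, 95% interval -0.53 to 2.05, adjusted p = 0.769). Bmp1, which despite its name is a metalloproteinase that processes matrix proteins and frees latent TGF-beta, fell in WT (log2 -0.94 ± 0.28, adjusted p = 0.0114) and had -0.38 ± 0.27 in ARNoC (adjusted p = 0.307).

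Inhbb, which encodes the beta B subunit of activins and inhibins, fell the most of all members that passed the test in both genotypes. Its libraries had 60.6, 52.7, 60.9, 63.6 and 64.1 normalized counts in ARNoC with testosterone, against 293, 329, 340, 317 and 294 with vehicle. The WT libraries had 90.8, 70.7, 83.8, 103 and 113 with testosterone, against 279, 286, 252, 321 and 264 with vehicle. Every testosterone library lay far below every vehicle library, and the 5 ARNoC testosterone libraries also lay below all 5 WT testosterone libraries. The log2 change was -2.37 ± 0.11 in ARNoC (5.18-fold lower, adjusted p = 6.18e-12, edgeR) and -1.59 ± 0.11 in WT (3.003-fold lower, adjusted p = 1.38e-09). Its promoter is the one shown above with AGAACA past the start, and whether that match has a part in the decrease was not tested. Inhba, the beta A subunit gene, was near the limit of detection, at 5.85 ± 3.46 normalized counts with testosterone and 5.67 ± 4.06 with vehicle in ARNoC, and at 7.97 ± 5.47 with testosterone and 8.40 ± 8.59 with vehicle in WT. A change in Inhba was not detectable at this depth, since its log2 intervals of -1.36 to 1.64 in ARNoC and -1.59 to 1.36 in WT are wide.

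The follistatins, which bind activins and block them, had positive log2 changes in both genotypes, of which those in ARNoC alone passed the test. Fstl3, a secreted activin inhibitor, had 63.8, 63.2, 109, 55.2 and 57.0 normalized counts in ARNoC testosterone libraries, against 33.1, 27.2, 25.8, 42.9 and 13.9 in ARNoC vehicle libraries. In WT it had 32.3, 27.1, 37.2, 69.3 and 41.6 with testosterone, against 25.8, 30.7, 15.7, 29.6 and 33.02 with vehicle. All ARNoC testosterone libraries were above all ARNoC vehicle libraries, with library 3 the highest, and the WT groups overlapped. Fstl3 rose in ARNoC (log2 1.29 ± 0.29, 2.45-fold, adjusted p = 0.00177, edgeR) and had 0.64 ± 0.30 in WT (adjusted p = 0.101), with an interaction of 0.65 (95% interval -0.23 to 1.53, adjusted p = 0.692). Fst, follistatin itself, averaged 494 ± 151 with testosterone and 269 ± 90.4 with vehicle in ARNoC, and 341 ± 130 with testosterone and 242 ± 76.1 with vehicle in WT (SD, n = 5 each). It rose in ARNoC (log2 0.89 ± 0.30, 1.85-fold, adjusted p = 0.0268) and had 0.50 ± 0.31 in WT (adjusted p = 0.204). Leaving out vehicle library 2 or 5 or testosterone library 1, 3, 4 or 5 of the ARNoC groups ended the Fst call (adjusted p 0.0526 to 0.0798), as did scaling to totals (log2 0.53, adjusted p = 0.164) or leaving out both stroma-poor vehicle libraries, WT 2 and ARNoC 5 (adjusted p = 0.0615). In WT, Fst passed the test with the fibroblast score as a covariate (adjusted p = 0.0256, edgeR). Fstl3 did so there with the fibroblast or the myeloid score (adjusted p down to 0.00537). The ratio of Inhbb to Fst per kb was 0.106 to 0.232 in ARNoC testosterone libraries, against 0.883 to 2.33 in ARNoC vehicle libraries. In WT it was 0.202 to 0.423 with testosterone, against 0.961 to 2.13 with vehicle, so the groups were apart in both genotypes.

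Fstl1, which shares the follistatin-like domain but acts mainly outside activin binding, fell in WT and did not pass the test in ARNoC. Its libraries had 658, 411, 1566, 836 and 1315 normalized counts in ARNoC with testosterone, against 1828, 1533, 1224, 2441 and 243 with vehicle. In WT they had 363, 176, 622, 665 and 835 with testosterone, against 1831, 505, 1150, 1179 and 2661 with vehicle. Both pairs of groups overlapped, with ARNoC vehicle library 5 and WT vehicle library 2 far below the rest of their groups. edgeR fitted a log2 change of -0.59 ± 0.50 in ARNoC (adjusted p = 0.382, edgeR) and -1.44 ± 0.52 in WT (2.71-fold lower, adjusted p = 0.0325), with an interaction of 0.85 (95% interval -0.64 to 2.34, adjusted p = 0.774). In WT the call was lost without vehicle library 1 or 5 or testosterone library 1 or 2 (adjusted p 0.0630 to 0.106).

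**Figure D2:**
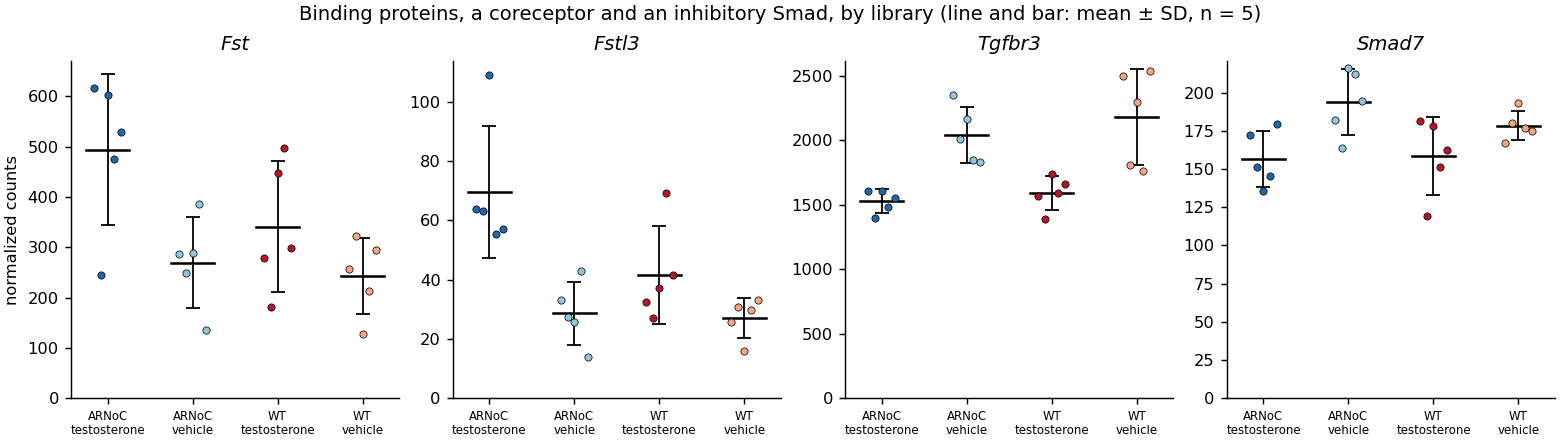
Normalized counts of Fst, Fstl3, Tgfbr3 and Smad7 in each library (points), with the mean and SD of 5 libraries, in ARNoC testosterone, ARNoC vehicle, WT testosterone and WT vehicle groups. The ARNoC groups of Fstl3 do not overlap (55.2 to 109 with testosterone, 13.9 to 42.9 with vehicle), and those of Fst and Smad7 do.

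Bmp7 was the BMP ligand that rose, and it did so by nearly the same amount in both genotypes. Its libraries had 618, 674, 412, 675 and 661 normalized counts in ARNoC with testosterone, against 357, 307, 412, 259 and 291 with vehicle. The WT libraries had 497, 621, 568, 621 and 586 with testosterone, against 284, 300, 316, 313 and 322 with vehicle. The WT groups were well apart, while in ARNoC testosterone library 3 (412.2) and vehicle library 3 (411.9) were nearly level. The log2 change was 0.91 ± 0.13 in ARNoC (1.88-fold, adjusted p = 1.05e-05, edgeR) and 0.92 ± 0.13 in WT (1.90-fold, adjusted p = 8.90e-06). Bmp7 was also the most abundant of the 5 BMP ligand transcripts per kb, at 72.1% to 87.4% of their sum in ARNoC testosterone libraries, against 51.4% to 71.2% in ARNoC vehicle libraries. In WT it made up 77.4% to 89.0% with testosterone, against 55.8% to 71.3% with vehicle. The ratio of Bmp7 to Bmp4 per kb had a median of 5.19 with testosterone and 3.23 with vehicle in ARNoC, and 7.72 with testosterone and 3.20 with vehicle in WT.

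Bmp4, which restrains ductal budding in the developing mouse prostate, averaged 56.4 ± 15.8 normalized counts with testosterone and 64.0 ± 22.1 with vehicle in ARNoC, and 47.2 ± 18.9 with testosterone and 66.2 ± 22.3 with vehicle in WT (SD, n = 5 each). Bmp2 averaged 39.0 ± 15.3 with testosterone and 35.4 ± 12.6 with vehicle in ARNoC, and 36.1 ± 13.7 with testosterone and 36.0 ± 12.2 with vehicle in WT. Neither passed the test, with intervals of -0.79 to 0.45 (Bmp4) and -0.50 to 0.80 (Bmp2) in ARNoC and of -1.11 to 0.16 and -0.64 to 0.69 in WT. The WT decrease of Bmp4 passed with scaling to totals (adjusted p = 0.0217, edgeR). Bmp6 was scarce, at 9.94 ± 6.18 with testosterone and 13.7 ± 6.35 with vehicle in ARNoC, and 6.47 ± 4.13 with testosterone and 12.4 ± 6.46 with vehicle in WT. Its exons face 224 bases of Txndc5 exon on the opposite strand, the strand setting of the counting is not stated in the labels, and Txndc5 had 71804 counts over all libraries, against 236 for Bmp6, so the Bmp6 values are uncertain.

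The antagonist and ligand genes that could not be tested were close to absent from the counts. Over the 5 libraries of a group, Bmp5 had 12 counts in ARNoC testosterone, 22 in ARNoC vehicle, 19 in WT testosterone and 20 in WT vehicle. Nog, which encodes the BMP antagonist noggin, had 4, 9, 0 and 7 counts in the same groups. Gdf15, a stress-induced ligand of the family, had 2, 0, 1 and 5, and Grem1, the BMP antagonist gremlin, had 0, 1, 0 and 4. A group at 0 allows up to 3 counts, and these 4 genes were too sparse to be tested.

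Bmpr1b, a type I BMP receptor, rose more than any other member. Its libraries had 8838, 7060, 5980, 11809 and 12744 normalized counts in ARNoC with testosterone, against 2028, 1914, 1411, 1933 and 1991 with vehicle. In WT they had 8551, 9276, 8377, 5710 and 7836 with testosterone, against 1717, 1223, 1180, 1097 and 890 with vehicle. No testosterone library came near any vehicle library, and the spread between libraries was widest in ARNoC with testosterone. Testosterone over vehicle gave a log2 change of 2.33 ± 0.20 in ARNoC (5.02-fold, adjusted p = 2.61e-08, edgeR) and 2.71 ± 0.21 in WT (6.55-fold, adjusted p = 3.96e-09). The interaction was -0.38 (95% interval -0.95 to 0.19, adjusted p = 0.731).

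Bmpr1a, the other type I receptor of that pair, stayed within a narrow range. It averaged 2048 ± 194 normalized counts with testosterone and 2185 ± 221 with vehicle in ARNoC, and 2164 ± 87.0 with testosterone and 2205 ± 94.2 with vehicle in WT (SD, n = 5 each). The log2 interval was -0.23 to 0.06 in ARNoC and -0.17 to 0.13 in WT, while scaling to totals made it pass the test as a decrease in both. The ratio of Bmpr1b to Bmpr1a per kb, which does not depend on the scaling of a library, was 3.20 to 5.95 in ARNoC testosterone libraries, against 0.779 to 1.06 in ARNoC vehicle libraries. In WT it was 2.94 to 4.30 with testosterone, against 0.456 to 0.828 with vehicle. With testosterone, Bmpr1b had the highest level per kb of all 37 members in both genotypes, at 1558 ± 492 in ARNoC and 1333 ± 227 in WT, while with vehicle it ranked behind Bmpr1a.

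Acvr1, the third of the type I receptors that carry BMP signals, rose by a small and even amount. Its libraries had 544, 448, 466, 488 and 487 normalized counts in ARNoC with testosterone, against 399, 368, 376, 378 and 374 with vehicle. The WT libraries had 500.4, 444, 472, 495 and 458 with testosterone, against 376, 375, 377, 416 and 372 with vehicle. The groups did not overlap in either genotype, although WT vehicle library 4 came closest to the testosterone group. The log2 change was 0.37 ± 0.06 in ARNoC (1.29-fold, adjusted p = 7.63e-05, edgeR) and 0.31 ± 0.06 in WT (1.24-fold, adjusted p = 0.000389), but 0.02 in ARNoC and -0.11 in WT with scaling to totals (adjusted p = 0.823 and 0.208). Relative to Bmpr1a per kb, Acvr1 stood at 0.281 to 0.349 in ARNoC testosterone libraries, against 0.201 to 0.258 in ARNoC vehicle libraries. In WT the ratio was 0.254 to 0.314 with testosterone, against 0.223 to 0.235 with vehicle.

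Acvr2a, a type II receptor for activins and some BMPs, fell in both genotypes. Its libraries had 554, 430, 445, 587 and 515 normalized counts in ARNoC with testosterone, against 815, 870, 776, 1085 and 1027 with vehicle. In WT they had 665, 684, 675, 569 and 571 with testosterone, against 759, 862, 973, 1243 and 1021 with vehicle. No library overlapped with the other group. On the log2 scale the change was -0.84 ± 0.12 in ARNoC (1.79-fold lower, adjusted p = 2.26e-05, edgeR) and -0.61 ± 0.12 in WT (1.53-fold lower, adjusted p = 0.000585). Its exons share 446 bases with Orc4 on the opposite strand, a gene of 14077 counts over all libraries, against 15966 for Acvr2a, and Orc4 had a log2 change of 0.11 in ARNoC and 0.18 in WT. Acvr2b, the related receptor, had only 8.21 ± 2.403 normalized counts with testosterone and 10.7 ± 3.18 with vehicle in ARNoC, and 5.71 ± 3.29 with testosterone and 10.5 ± 3.88 with vehicle in WT, and did not pass the test (log2 -0.35 and -0.84, adjusted p = 0.458 and 0.0873). It passed the test in WT without testosterone library 1 (adjusted p = 0.0480) or 5 (adjusted p = 0.0343), and with scaling to totals (adjusted p = 0.00942, edgeR). Bmpr2, the type II receptor of BMPs, had log2 intervals of -0.21 to 0.11 in ARNoC and -0.28 to 0.04 in WT. With scaling to totals Bmpr2 passed the test as a decrease in both (adjusted p = 0.000491 in ARNoC and 1.46e-05 in WT, edgeR).

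The 3 TGF-beta receptors behaved differently from each other. Tgfbr3, or betaglycan, a coreceptor that presents TGF-beta to its receptors and also binds inhibin, had 1606, 1398, 1604, 1479 and 1554 normalized counts in ARNoC testosterone libraries, against 2346, 2009, 2160, 1842 and 1833 in ARNoC vehicle libraries. In WT it had 1566, 1388, 1740, 1592 and 1659 with testosterone, against 2498, 1804, 2297, 1758 and 2539 with vehicle. The groups were apart in both genotypes, in WT by a narrow margin between testosterone library 3 and vehicle library 4. The log2 change was -0.41 ± 0.10 in ARNoC (1.33-fold lower, adjusted p = 0.00311, edgeR) and -0.45 ± 0.10 in WT (1.36-fold lower, adjusted p = 0.00148). Tgfbr2, the type II receptor, rose in ARNoC, at 2874 ± 637 with testosterone, against 2104 ± 450 with vehicle (log2 0.46 ± 0.15, 1.38-fold, adjusted p = 0.0232). Without ARNoC testosterone library 3 its log2 change was 0.27 (adjusted p = 0.164), and the call also ended without ARNoC testosterone library 1, ARNoC vehicle library 5 or WT testosterone library 1 or 3 (adjusted p 0.0509 to 0.0637). It was lost as well with scaling to totals (0.11, adjusted p = 0.606), without the filter on low counts (adjusted p = 0.0613), in the ARNoC groups alone (adjusted p = 0.0772) and without both stroma-poor vehicle libraries (adjusted p = 0.0546). In WT it averaged 2532 ± 234 with testosterone and 2374 ± 445 with vehicle (log2 0.10 ± 0.15, adjusted p = 0.626), and passed the test with the fibroblast (0.39, adjusted p = 0.0204) or myeloid (0.75, adjusted p = 0.00730) marker score as a covariate. Tgfbr1, the type I receptor, had log2 intervals of -0.14 to 0.20 in both genotypes, but fell with scaling to totals (-0.32 in ARNoC and -0.40 in WT).

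**Figure D3:**
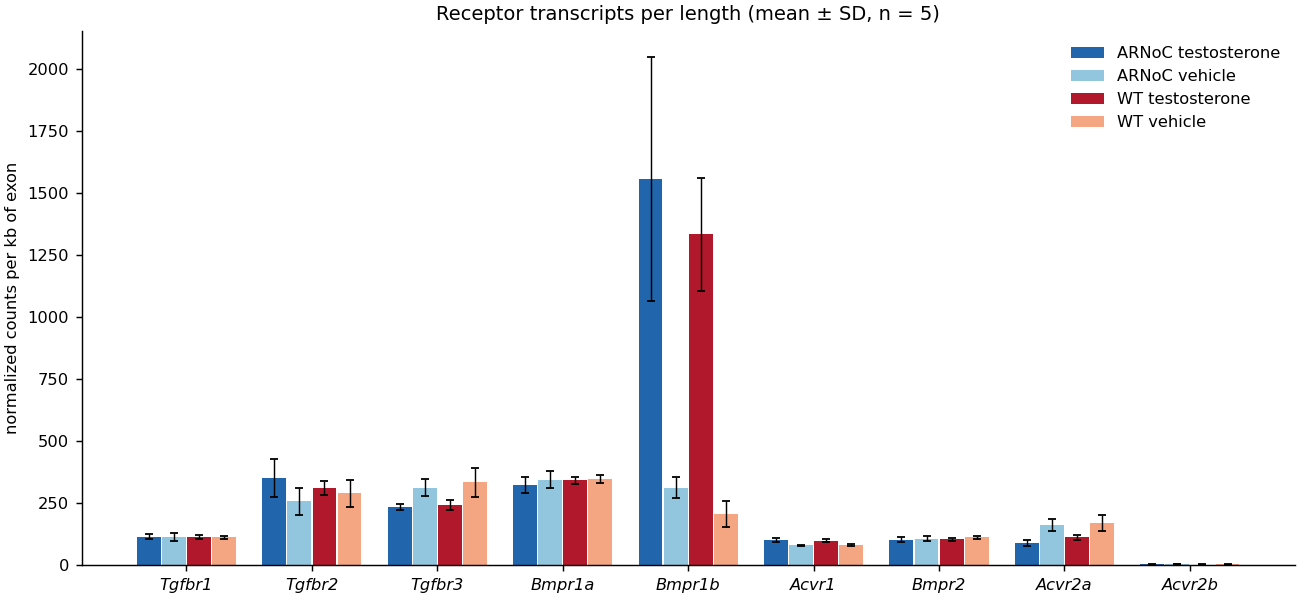
Normalized counts per kb of exon (mean and SD, n = 5) of 9 receptor genes in ARNoC testosterone, ARNoC vehicle, WT testosterone and WT vehicle libraries. Bmpr1b stands above the other receptors with testosterone (1558 in ARNoC and 1333 in WT) and not with vehicle (311 in ARNoC and 205 in WT), while Acvr2b lies near 0.

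As a group, the 3 BMP type I receptor transcripts summed to a median of 1918 normalized counts per kb in ARNoC testosterone libraries, against 743 in ARNoC vehicle libraries. In WT the sum had a median of 1837 with testosterone, against 631 with vehicle. The 4 type II receptor transcripts together had a median of 515 in ARNoC testosterone libraries and 490.2 in ARNoC vehicle libraries, and of 538 in WT testosterone libraries and 541 in WT vehicle libraries, and the ranges of the groups overlapped.

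Bambi, a transmembrane decoy that lacks a kinase domain and blocks receptor signalling, rose in both genotypes. It ranged from 320 to 455 normalized counts in ARNoC testosterone libraries, with a median of 419, against 190 to 227 in ARNoC vehicle libraries, with a median of 213. In WT it ranged from 228 to 374 with testosterone, against 153 to 256 with vehicle, so the WT groups overlapped. edgeR fitted a log2 change of 0.95 ± 0.14 in ARNoC (1.94-fold, adjusted p = 2.67e-05, edgeR) and 0.49 ± 0.14 in WT (1.41-fold, adjusted p = 0.0102). The WT call ended without WT testosterone library 4 (0.36, adjusted p = 0.0530), and scaling to totals left 0.60 in ARNoC (adjusted p = 0.000873) and 0.07 in WT (adjusted p = 0.667). Smad7, an inhibitory Smad induced by TGF-beta, averaged 157 ± 18.4 with testosterone and 194 ± 21.6 with vehicle in ARNoC, and 159 ± 25.3 with testosterone and 178 ± 9.42 with vehicle in WT. It fell in ARNoC only just (log2 -0.30 ± 0.12, adjusted p = 0.0477) and had -0.16 ± 0.12 in WT (adjusted p = 0.279). The WT decrease of Smad7 passed the test with scaling to totals (adjusted p = 0.000634, edgeR). Leaving out any one of 12 libraries ended the ARNoC call (adjusted p 0.0508 to 0.115): WT vehicle libraries 1 to 5, ARNoC vehicle libraries 1, 3, 4 and 5, and ARNoC testosterone libraries 2, 3 and 4. It also ended without both stroma-poor vehicle libraries (adjusted p = 0.0801) and with the fibroblast or myeloid score as a covariate (adjusted p = 0.0531 and 0.0894). Smad6, the inhibitory Smad of the BMP branch, had 12.8 ± 2.89 with testosterone and 16.8 ± 5.22 with vehicle in ARNoC. In WT it had 9.88 ± 5.44 with testosterone and 16.4 ± 4.59 with vehicle. It did not pass the test (log2 -0.37 in ARNoC and -0.67 in WT, adjusted p = 0.390 and 0.124, edgeR). The WT decrease of Smad6 passed without WT testosterone library 5 (log2 -0.995, adjusted p = 0.0342, edgeR) and with scaling to totals (adjusted p = 0.00837, edgeR).

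None of the 3 Id genes among the members rose, of the family that encodes inhibitors of basic helix-loop-helix factors and is a classical target of BMP signalling. Id2 had 264, 304, 395, 274 and 274 normalized counts in ARNoC testosterone libraries, against 526, 489, 480, 519.9 and 539.9 in ARNoC vehicle libraries. In WT it had 293, 284, 276, 356 and 445 with testosterone, against 510.3, 581, 502, 517 and 508 with vehicle. The groups were apart in both genotypes, with WT testosterone library 5 and ARNoC testosterone library 3 the highest of their groups. The log2 change was -0.75 ± 0.12 in ARNoC (1.68-fold lower, adjusted p = 7.12e-05, edgeR) and -0.65 ± 0.12 in WT (1.57-fold lower, adjusted p = 0.000316). Id1 averaged 22.7 ± 6.71 with testosterone and 34.8 ± 16.4 with vehicle in ARNoC, and 25.02 ± 24.3 with testosterone and 33.7 ± 11.7 with vehicle in WT, and did not pass the test (log2 -0.62 and -0.36, adjusted p = 0.307 and 0.565). Without WT testosterone library 5 the WT change of Id1 was -1.20 (adjusted p = 0.0213). Id3 averaged 82.6 ± 51.8 with testosterone and 101.1 ± 28.7 with vehicle in ARNoC, and 64.1 ± 59.3 with testosterone and 136 ± 47.8 with vehicle in WT, and did not pass either (log2 -0.29 and -1.04, adjusted p = 0.655 and 0.0866). Without WT testosterone library 5 the WT change of Id3 was -1.82 (adjusted p = 0.00266). With all libraries, the WT decrease of Id3 also passed the test under total-count scaling, DESeq2 and limma-trend (adjusted p down to 0.0156).

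**Figure D4:**
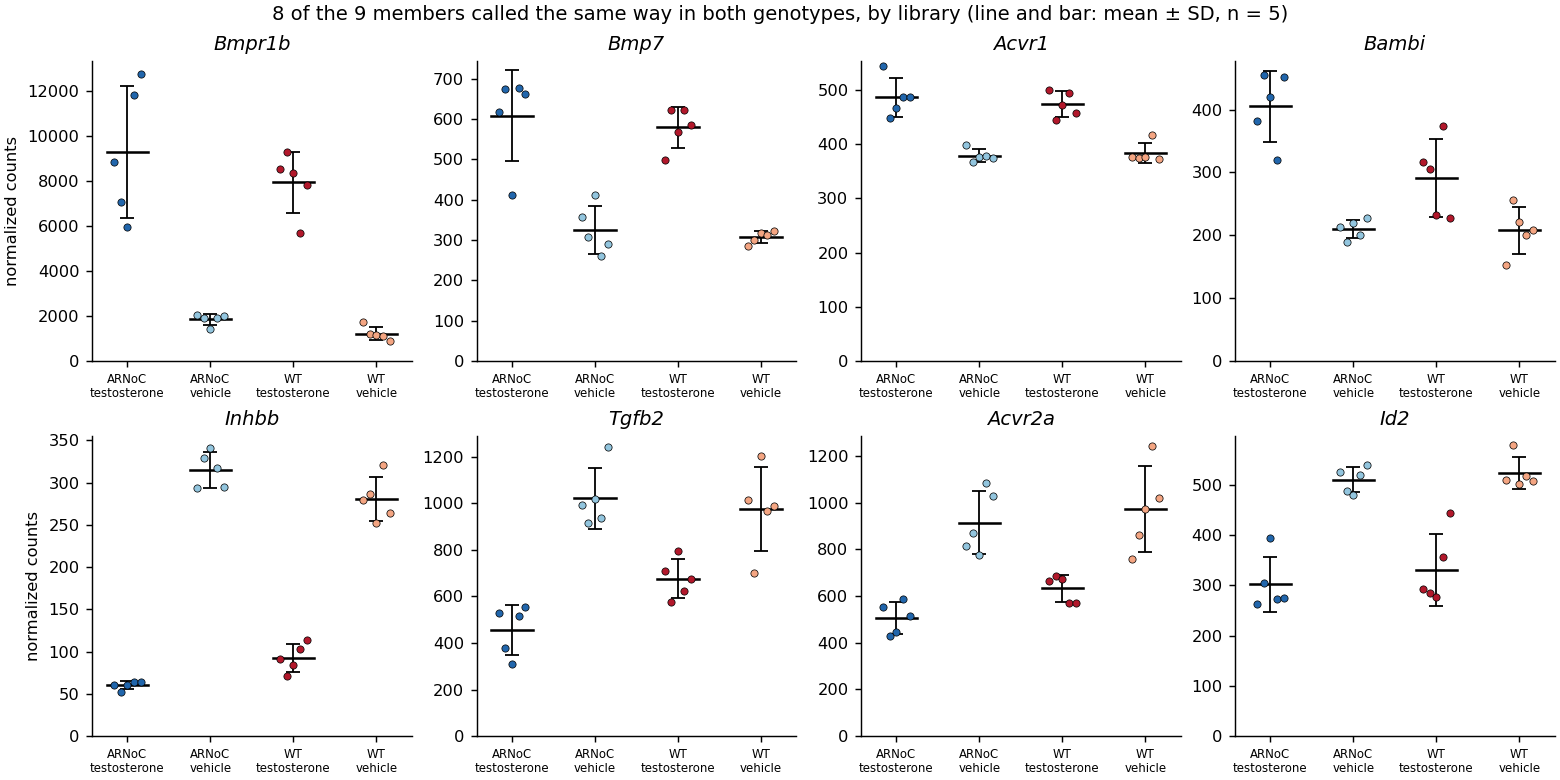
Normalized counts in each library (points), with the mean and SD of 5 libraries, of 8 of the 9 members that rose (upper panels) or fell (lower panels) with testosterone in both genotypes. Testosterone and vehicle libraries are apart in every panel for ARNoC and overlap in WT for Bambi and Tgfb2.

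Of the 9 members that changed the same way in both genotypes, 8 kept both calls when any single library was left out, Bambi being the exception in WT. Inhbb, Acvr2a, Bmp7, Bmpr1b and Id2 kept both calls under every alternative run, and the other 4 lost at least one.

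The 2 genotypes differed in few members. With testosterone, 1 member was lower in ARNoC than in WT and 0 were higher, where 1.01% and 0.681% of all genes were. That member was Inhbb, which averaged 60.4 ± 4.57 normalized counts in ARNoC testosterone libraries and 92.4 ± 16.6 in WT testosterone libraries (log2 -0.61 ± 0.12, adjusted p = 0.00674, edgeR). The call held without any single library (adjusted p 0.00152 to 0.0195) and ended in a fit of the 2 compared groups alone (adjusted p = 0.102). Tgfb2 was next, at 457 ± 107 in ARNoC and 676 ± 83.5 in WT with testosterone, with no overlap between the groups (log2 -0.56 ± 0.15, adjusted p = 0.0701), and passed the test without WT vehicle library 2 (adjusted p = 0.0443). In that comparison DESeq2 called 1 member higher (Bambi) and 2 lower (Inhbb and Tgfb2), among 493 genes called in all.

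With vehicle, edgeR called 0 members higher and 0 lower in ARNoC, where 0.17% and 0.151% of all genes were called, and DESeq2 and limma-trend also called 0. The smallest adjusted p among the members was that of Bmpr1b (log2 0.61 ± 0.19, adjusted p = 0.293, edgeR). It had 1855 ± 252 normalized counts in ARNoC vehicle libraries and 1221 ± 305 in WT vehicle libraries. For Inhbb the 95% interval with vehicle was -0.05 to 0.39 and for Bmp7 it was -0.17 to 0.35.

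In the interaction edgeR called 0 members in either direction, as it called 0% of all genes, and limma-trend also called 0. The smallest adjusted p among the members were those of Inhbb (-0.79 ± 0.16, adjusted p = 0.168, edgeR), Tgfb2 (-0.63 ± 0.21, adjusted p = 0.436) and Bambi (0.46 ± 0.20, adjusted p = 0.540). DESeq2 called Inhbb (-0.79, adjusted p = 0.00834), whose adjusted p ran from 0.00834 to 0.336 over the alternatives, that of DESeq2 included, and from 0.052 to 0.292 with one library left out. The 3 members that passed the test in WT alone (Tgfbi, Fstl1 and Bmp1) and the 5 that did so in ARNoC alone (Tgfbr2, Fst and Fstl3 upward, Ltbp2 and Smad7 downward) are therefore not shown to differ between the genotypes. Narrow intervals of the interaction stood at Acvr1 (-0.12 to 0.23) and Tgfbr1 (-0.24 to 0.24), and wide ones at Id3 (-0.63 to 2.12) and Fstl1.

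Scores of cell type markers differed between libraries, and some members were low where the fibroblast score was low. Whether a score reflects the number of cells or RNA per cell was not tested. The fibroblast score of a library, the mean log2 CPM of 18 markers, was 4.51 to 5.95 in ARNoC testosterone libraries, 3.63 to 6.86 in ARNoC vehicle libraries, 3.13 to 5.29 in WT testosterone libraries and 4.38 to 6.92 in WT vehicle libraries. No marker was at 0 in any group, and testosterone lowered 1 of the 18 in ARNoC and 7 in WT. Fstl1, Tgfbi and Bmp1 were each lowest of the 20 libraries in the one with the lowest score: WT testosterone library 2 (score 3.13) had 176 normalized counts of Fstl1, 55.4 of Tgfbi and 154 of Bmp1. ARNoC vehicle library 5 (3.63) had 243 of Fstl1, the lowest of its group. With the score as a covariate, the WT change of Fstl1 was -0.07 (adjusted p = 0.662), that of Bmp1 -0.24 (adjusted p = 0.0727) and that of Tgfbi -0.76 (adjusted p = 0.00407, edgeR). The score had a median of 5.28 with testosterone and 5.81 with vehicle in ARNoC, and 4.82 with testosterone and 5.85 with vehicle in WT, with ranges that overlapped in both genotypes, and its difference between treatments was not tested. Under the same covariate Bmpr1b kept 2.31 in ARNoC and 2.64 in WT, Inhbb -2.35 and -1.51, Bmp7 0.89 and 0.89, and Id2 -0.74 and -0.60, each past the test. Tgfb2, Tgfbr3, Acvr1 and Acvr2a also kept both calls, while Bambi lost its call in WT. The ARNoC change of Tgfbi passed the test under this covariate.

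Myeloid markers moved more evenly with treatment. Their score was 3.43 to 4.46 in ARNoC testosterone libraries and 3.87 to 5.57 in ARNoC vehicle libraries, and 3.02 to 3.80 in WT testosterone libraries and 4.05 to 6.04 in WT vehicle libraries. Testosterone lowered 12 of 15 tested markers in ARNoC and 15 of 15 in WT, and none was at 0. With the myeloid score as a covariate, Tgfb2 in WT (-0.61, adjusted p = 0.0977, edgeR), Tgfbr3 (-0.22 in ARNoC and -0.11 in WT), Acvr1 in WT (0.27) and Bambi in WT (0.09) no longer passed the test, while Bmpr1b (2.26 and 2.59), Inhbb (-2.33 and -1.51), Acvr2a (-0.89 and -0.69), Bmp7 (0.81 and 0.77) and Id2 (-0.70 and -0.56) did in ARNoC and in WT. The WT groups did not overlap in this score, so in WT its part cannot be told apart from testosterone. In ARNoC the overlap rested on vehicle library 5 alone (3.87), and the other vehicle libraries stood at 4.96 or above. The 2 are therefore hard to separate in ARNoC as well. Among the other lists, 5 of 10 smooth muscle markers rose in ARNoC and 1 in WT, and 5 of 8 basal epithelial markers fell in ARNoC and 4 in WT. Lymphocyte markers fell in 6 of 9 tested in each genotype, luminal epithelial markers in 5 of 8 in ARNoC and 4 of 8 in WT, with 2 of 8 higher in each, and endothelial markers in 0 of 10 in ARNoC and 2 of 10 in WT. The part of these cell types in the members' changes was not tested.

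**Figure D5:**
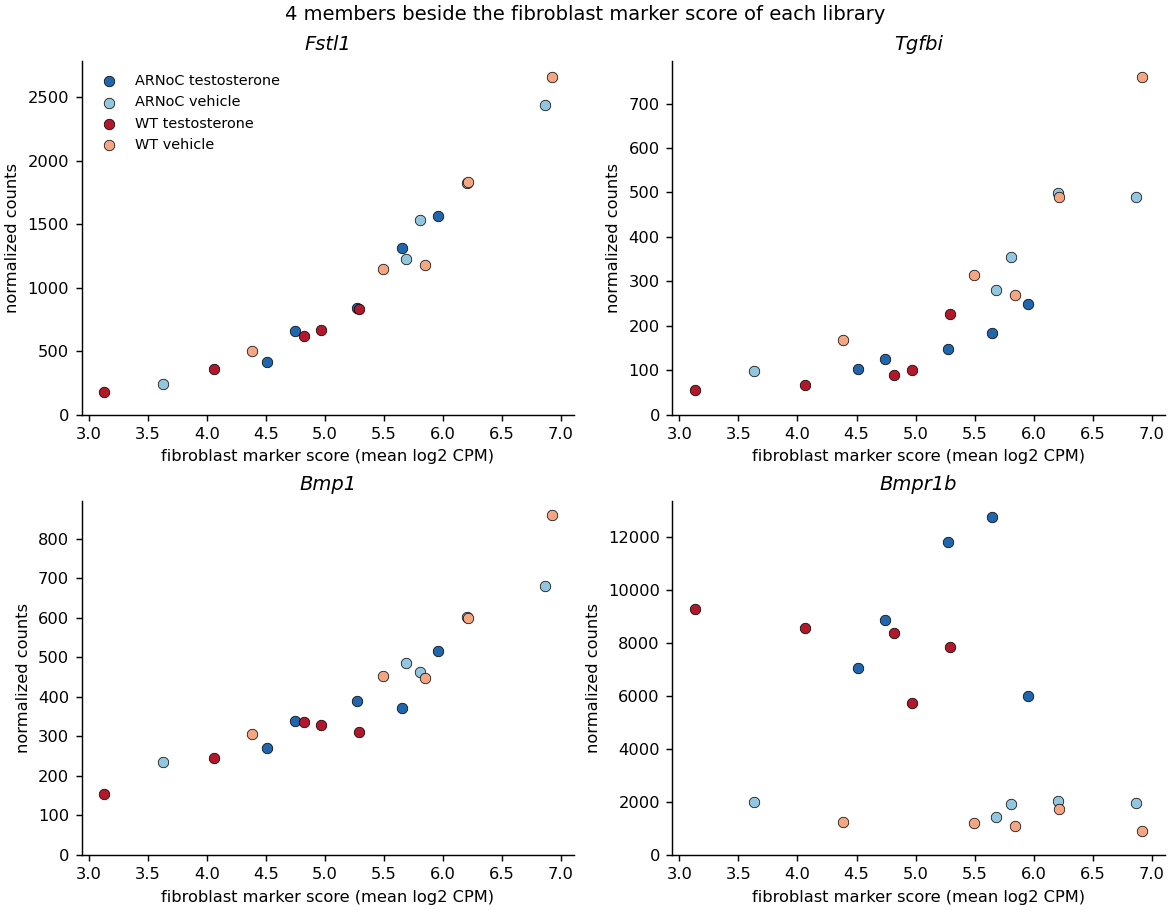
Normalized counts of Fstl1, Tgfbi, Bmp1 and Bmpr1b in each of the 20 libraries (vertical) against the fibroblast marker score of that library, in mean log2 CPM (horizontal), coloured by group. Fstl1 lies between 176 in the library with the lowest score (3.13) and 2661 in that with the highest (6.92), while the Bmpr1b libraries separate by treatment at any score.

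Other genes of these pathways were read from a list of 76, of which 51 were tested. With testosterone, 4 rose and 14 fell in ARNoC, with a median log2 change of -0.24, and 3 rose and 20 fell in WT, with a median of -0.35, and 3 rose and 10 fell in both genotypes. Among all genes 19.4% rose and 16.8% fell in ARNoC, 20.4% rose and 18.8% fell in WT, and 26.9% changed the same way in both. Id4, an Id family gene that is not among the members, averaged 331 ± 101.4 normalized counts with testosterone and 106 ± 40.6 with vehicle in ARNoC, and 307 ± 93.5 with testosterone and 89.2 ± 31.9 with vehicle in WT, with no overlap in either (log2 1.66 ± 0.28 and 1.79 ± 0.29, adjusted p = 0.000117 and 5.87e-05, edgeR). Itgb6, a subunit of the integrin that activates latent TGF-beta, fell by a log2 of 1.55 in ARNoC and 1.56 in WT, to 51.5 ± 20.3 with testosterone, against 152 ± 41.7 with vehicle in ARNoC. Ski and Tgif1, repressors of Smad-dependent transcription, fell in both genotypes (log2 -0.42 and -0.39 for Ski, -0.39 and -0.26 for Tgif1, in ARNoC and WT), as did Smurf1, a ubiquitin ligase for Smads and receptors (-0.46 and -0.39), and Acvr1b, the activin type I receptor (-0.49 and -0.35). The BMP-binding proteins Crim1 (-0.74 in ARNoC and -1.03 in WT) and Nbl1 (-1.04 and -0.85) also fell. Bmp8b rose (2.37 and 1.998), but it is a near copy of Bmp8a, had 146 counts in all and faces exons of Ppie, so its values are uncertain.

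Smad4, the partner that both Smad branches share, was the one gene of that list that differed between the genotypes. It had 2347, 2403, 2573, 2292 and 2418 normalized counts in ARNoC testosterone libraries, against 3208, 3968, 2568, 3705 and 2999 in ARNoC vehicle libraries. In WT it had 2396, 2741, 2561, 2449 and 2336 with testosterone, against 4896, 6452, 4759, 5569 and 4287 with vehicle. All ARNoC vehicle libraries lay below all WT vehicle libraries, and the 2 testosterone groups overlapped. ARNoC was lower than WT with vehicle (log2 -0.65 ± 0.11, adjusted p = 0.00546, edgeR) and did not differ past the threshold with testosterone (-0.05 ± 0.11, adjusted p = 0.871). Smad4 fell with testosterone in ARNoC (-0.44 ± 0.11, adjusted p = 0.00304) and in WT (-1.05 ± 0.11, adjusted p = 2.68e-07), and the interaction did not pass the test (0.61 ± 0.15, adjusted p = 0.334).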

How the data were processed

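Total RNA of snap-frozen ventral prostate went into Illumina TruSeq libraries, per the labels. The submitters' processing notes name FastQC 0.11.7, HISAT2, SAMtools 1.5, HTSeq, DESeq2 and the build mm10; they give no annotation, strand setting or read filter. The deposited counts are raw counts per gene symbol. The deposited signal values, called normalized counts here, are counts divided by the authors' size factors, which are the deposited ratio values; each product of both gave the count back within 4.19e-09. Library numbers follow accession order and pair nothing.

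From there, 15261 genes that reached 10 normalized counts in 5 or more of the 20 libraries were fitted with edgeR 4.0.16 (R 4.3.3): TMM scaling, 1 mean per group over all libraries, quasi-likelihood F-tests, Benjamini-Hochberg adjustment over all genes tested and a threshold of 0.05. Standard errors and 95% intervals come from the same fit (common biological coefficient of variation 0.214). Comparisons numbered 5: testosterone against vehicle in each genotype, ARNoC against WT under each treatment, and the interaction. Exon lengths and coordinates come from GENCODE M21 (GRCm38, the same assembly as mm10), and promoters from RefSeq (GRCm38.p6). The script was tested on simulated data.

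All members could be named. Values of every library were given for members that changed the same way in both genotypes with no overlap in either, that differed between genotypes, or that changed in 1 genotype alone by a log2 of at least 1. At most 10 other pathway genes were named, those with the smallest p over both testosterone comparisons. The members, the lists and the rule were chosen with earlier results of these data known. Alternatives were median-of-ratios and total-count scaling, no filter and a filter at 50 normalized counts, DESeq2 1.42.0, limma-trend 3.58.1 (log2 of normalized count plus 1), the compared groups alone, marker scores as covariates, and leaving out libraries. The stroma-poor pair left out together, WT vehicle library 2 and ARNoC vehicle library 5, was picked from earlier results. Marker scores are means of log2 CPM. Figures were drawn with matplotlib 3.10.9. One overlap between genes is not reported here.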

Additional observations from a re-analysis of the deposited data

Results flagged for a closer look

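Among 132 groups of 5 libraries examined (33 tested members in 4 groups), 9 held a library far from the other 4, where chance gives about 1 in 20 groups. ARNoC testosterone library 3 was the one that stood apart in 4 members: it was the highest of its group for Tgfbr2 (3993 normalized counts, others 2428 to 2769), Fstl3 (109, others 55.2 to 63.8) and Id3 (174, others 54.6 to 70.2) and the lowest for Bmp7 (412, others 618 to 675). WT vehicle library 2 was the lowest of its group for Tgfb3 (144, others 217 to 234) and the highest for Id2 (581, others 502 to 517). WT testosterone library 5 was the highest for Tgfbi (227, others 55.4 to 99.8). WT vehicle library 4 was the highest for Acvr1 (416, others 372 to 377), and ARNoC vehicle library 3 the lowest for Bmpr1b (1411, others 1914 to 2028).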

How the results depend on the processing

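Of 4882 member values over 30 settings, 4764 kept their call and its direction or stayed uncalled. Another 56 lost the call, 49 gained one and 13 reversed, that is, changed sign while called in either fit. The 4764 include 259 values that changed sign while uncalled in both fits. A further 30 values were absent under the stricter filter, and DESeq2 gave 5 no adjusted p. No paired analysis was possible because the labels give no replicate number that could pair libraries.

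With total-count scaling, Tgfbr1 (-0.32 in ARNoC, -0.40 in WT), Ltbp3 (-0.22, -0.28) and Acvr1 in WT (-0.11) reversed. With the fibroblast score as covariate Ltbp4 in WT (0.68) reversed, and with the myeloid score Fstl1 (1.21 in ARNoC, 1.499 in WT), Bmp1 (0.52, 0.58) and, in WT, Tgfbi (0.63), Ltbp1 (1.15) and Ltbp4 (1.63). In WT, the reversed values of Acvr1, Bmp1 and Tgfbi were not called in the new direction (adjusted p = 0.208, 0.0826 and 0.134, edgeR). The other reversed values were called in it. The myeloid score does not overlap between the WT groups, and overlaps between the ARNoC groups through vehicle library 5 alone.

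Member calls with testosterone moved to 4 higher and 13 lower in ARNoC and 2 and 20 in WT with total-count scaling (all genes 8726 and 10219), to 12 and 4 in ARNoC and 7 and 3 in WT with the myeloid score (all genes in WT 3078), and to 7 higher in WT with the fibroblast score. ARNoC against WT with testosterone gave 1 member higher with total-count scaling, DESeq2 or either score, 2 lower with DESeq2 or without both stroma-poor vehicle libraries, and 0 lower in the compared groups alone; all genes came to 437 with total-count scaling and 493 with DESeq2. With vehicle, all genes came to 138 (DESeq2), 19 (compared groups alone) and 75 (fibroblast score). The interaction gave 2 genes with total-count scaling or no filter, 25 with DESeq2 (1 member, lower) and 1 with limma-trend.

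Leaving out each library in turn gave 5 to 7 members higher and 5 to 8 lower in ARNoC, 3 to 5 and 7 to 12 in WT, and 1 to 2 lower in ARNoC against WT with testosterone. All genes came to 4864 to 5740 in ARNoC, 5292 to 6231 in WT, 154 to 286 between genotypes with testosterone, 29 to 76 with vehicle and 0 to 2 in the interaction. Except where stated, the cause of a move was not tested. Members under about 20 normalized counts (Inhba, Acvr2b, Bmp6, Smad6) have wide intervals, so a change in them could go unseen.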
